A study of Mus musculus with 12 samples.

Results

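Mitochondrial carriers of the Slc25 family were read from arrays of liver RNA of male mice with and without Pml. The carriers were taken as all genes whose symbol is Slc25a followed by a number, without the carnitine-acylcarnitine carrier Slc25a20, that had at least 1 probe set annotated to that gene alone. This gave 39 of the 17097 genes on the array, with 71 probe sets among them. The mice were labelled Wild Type or PML Knockout. For 20 weeks their food drew either 10% (low-fat) or 60% (high-fat) of its calories from fat, and an 8 h fast preceded collection of the liver. Each of the 4 groups had 8 mice, of which 3 liver extracts were hybridised to an array each. The labels give neither strain nor age, nor the cells in which Pml was removed, and do not say outright that each extract came from its own mouse, so the p-values measure the spread between these extracts. With 3 arrays a group, their number limits the precision.

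Carriers of this family are small proteins of the mitochondrial inner membrane that move metabolites, nucleotides, cofactors and ions between the cytosol and the matrix. In liver they link pathways that are split between these spaces. Citrate leaves the matrix as the source of acetyl-CoA for fatty acid synthesis, ornithine and aspartate cross for the urea cycle, malate crosses for glucose production, and ADP, ATP and phosphate cross for ATP synthesis. A few members lie elsewhere, such as Slc25a17 in the peroxisome membrane and Slc25a46 in the outer mitochondrial membrane.

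The livers matched their labels. The 6 of 8 hepatocyte markers with a probe set averaged 12.6 to 12.8 on the log2 scale in every array and all lay above the filter on dim genes. Pml was lower in knockout livers, with a log2 signal of 3.04 to 3.82 against 4.92 to 5.40 in wild-type livers (difference averaged over the diets -1.66, SE 0.133, limma adjusted p = 0.000225). Markers of macrophages and Kupffer cells were low in knockout low-fat replicate 2 (mean of the 10 markers 5.11) and knockout high-fat replicate 3 (5.66), and between 6.20 and 7.18 elsewhere. Markers of liver endothelium (8 of 8 with a probe set, 7 above the filter) were low in 3 knockout arrays, low-fat 2 (6.23), high-fat 2 (6.09) and high-fat 3 (6.13), with 6.64 to 7.16 elsewhere.

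Signals are log2 values, and the brightest probe set (by mean) stood for each gene. The 40% of genes with the lowest mean were left out of the test as dim, which kept 32 of the 39 carriers among 10258 genes with a mean of at least 4.08. The 7 carriers left out were the ornithine carrier Slc25a2, the glutamate carrier Slc25a18, the ATP-magnesium carrier Slc25a24, the brain uncoupling protein relative Slc25a27, the choline carrier Slc25a48, and Slc25a35 and Slc25a53, whose substrates are not settled. Their means over all arrays lay between 3.20 (Slc25a2) and 3.96 (Slc25a53).

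The tested carriers differed widely in how much they varied between livers of the same group. The median SD within groups was 0.147 over the 32 carriers, against 0.153 over all genes tested. The phosphate carrier Slc25a3, which brings in the phosphate for ATP synthesis, was the most even carrier. It lay between 11.37 and 11.50 in the 12 livers, with an SD of 0.0282 within groups, lower than in all but 0.0975% of genes. The glutathione carrier Slc25a39 (12.69 to 12.83), Slc25a16, which is linked to coenzyme A (9.49 to 9.66), and the outer membrane protein Slc25a46 (9.01 to 9.22) also stayed within narrow ranges. Slc25a39 was about as bright as the average of the hepatocyte markers (12.6 to 12.8), and differences shrink near the upper end of the scale. The comparison of SDs with all genes was not matched for signal.

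The widest spread was that of Slc25a25, a calcium-regulated carrier that exchanges ATP-magnesium for phosphate. Its signal was 7.93, 8.26 and 8.61 in wild-type low-fat livers, 8.23, 8.32 and 8.44 in wild-type high-fat livers, 9.10, 7.54 and 8.92 in knockout low-fat livers and 7.30, 8.28 and 8.28 in knockout high-fat livers. Knockout low-fat replicate 2 and knockout high-fat replicate 1 were thus the low ones, and the SD within groups of 0.542 was higher than in 98.4% of genes. Slc25a30, a relative of the uncoupling proteins, was low in knockout low-fat replicate 1 (7.12) and knockout high-fat replicate 1 (7.24), against 7.75 to 8.58 elsewhere. The NAD carrier Slc25a51 was high in wild-type low-fat replicate 3 (9.87) and knockout low-fat replicate 1 (9.91), against 8.47 to 9.30 elsewhere. Slc25a4, the ADP/ATP translocase best known in heart and muscle, was lowest in knockout high-fat replicate 3 (3.85) and knockout low-fat replicate 2 (4.09), against 4.36 to 5.18 in the other livers. In these same 2 arrays the markers of macrophages and of liver endothelium were low. Endothelium markers were also low in knockout high-fat replicate 2, where Slc25a4 was 4.49. Slc25a4 is dim, with a mean of 4.65 over all arrays, while the lowest mean kept by the filter was 4.08. What part those cells had in the Slc25a4 signal was not tested.

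**Figure D1:**
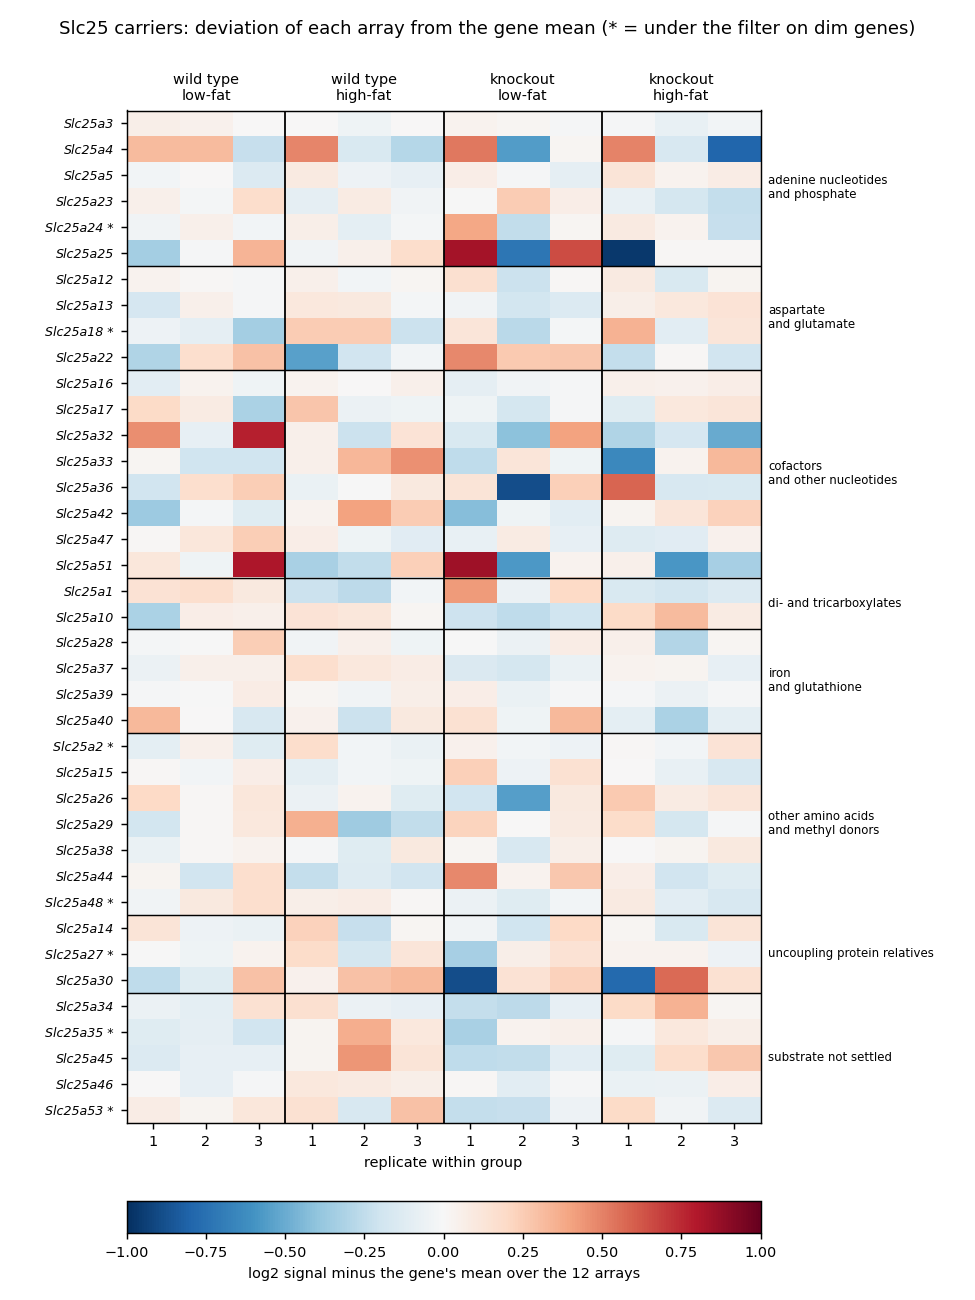
Log2 signal of each of the 39 carriers in each of the 12 arrays, as the difference from that gene's mean over all arrays (colour, cut at 1 either way), with carriers in rows grouped by substrate and arrays in columns grouped by genotype and diet. An asterisk marks the 7 carriers under the filter on dim genes. Slc25a25, Slc25a30, Slc25a51 and Slc25a4 change colour between arrays of the same group, while Slc25a3, Slc25a39 and Slc25a16 stay pale in all of them.

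The diets were compared to ask how the carriers differed between them, averaged over both genotypes, with 6 livers on each diet. A larger share of calories from fat leaves a smaller share for other nutrients, and the 2 cannot be told apart here. Of the 32 carriers, 3 passed at an adjusted p of 0.05. The citrate carrier Slc25a1 fell 1.25-fold on the high-fat diet. The dicarboxylate carrier Slc25a10 rose 1.22-fold and the coenzyme A carrier Slc25a42 rose 1.28-fold. The share of carriers that passed was 9.38%, against 4.56% of all genes tested, or 468 of 10258. In the rising direction, 2 carriers passed beside 2.57% of all genes, and in the falling direction 1 carrier beside 1.99%. With 32 carriers these shares rest on few genes. At an unadjusted p under 0.05 there were 10 carriers (31.2%), 5 higher and 5 lower, against 19.7% of all genes. The median difference was 0.0042 over the 32 carriers and -0.0036 over all genes, with 17 carriers higher and 15 lower. The median size of a difference, whatever its sign, was 0.134 over the carriers and 0.0947 over all genes. A whole liver was measured, so fewer cells of a type and less RNA per cell cannot be told apart.

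The DNA just before the starts of these 3 genes is shown because the carriers that passed went both ways, and the sequences show which known motifs each start has. Each line is the 250 bases before the RefSeq start (build GRCm38.p6), 5′ to 3′ on the strand of the gene, with motif matches in capitals. The motifs searched on both strands were the E-box CACGTG, the CCAAT box CCAAT, the sterol regulatory element TCACNCCAC and the nuclear receptor half-site AGGTCA, and no matches of different motifs overlapped in these windows. Slc25a1 lies on chr16:17928220-17928469, minus strand, Slc25a10 on chr11:120491587-120491836, plus strand, and Slc25a42 on chr8:70212282-70212531, minus strand.
Slc25a1: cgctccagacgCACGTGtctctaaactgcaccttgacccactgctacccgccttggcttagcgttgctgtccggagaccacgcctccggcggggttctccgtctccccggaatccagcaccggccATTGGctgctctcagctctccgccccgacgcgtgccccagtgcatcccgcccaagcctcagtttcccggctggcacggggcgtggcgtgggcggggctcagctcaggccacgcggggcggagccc
Slc25a10: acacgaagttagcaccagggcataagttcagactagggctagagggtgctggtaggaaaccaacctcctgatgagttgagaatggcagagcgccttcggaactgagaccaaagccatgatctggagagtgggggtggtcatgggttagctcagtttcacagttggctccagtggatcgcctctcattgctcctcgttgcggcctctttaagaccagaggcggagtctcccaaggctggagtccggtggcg
Slc25a42: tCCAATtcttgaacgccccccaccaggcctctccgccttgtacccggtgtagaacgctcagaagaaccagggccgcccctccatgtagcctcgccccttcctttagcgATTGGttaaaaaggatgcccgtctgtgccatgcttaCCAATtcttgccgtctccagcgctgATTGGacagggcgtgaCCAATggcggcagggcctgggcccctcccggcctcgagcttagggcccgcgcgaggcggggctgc
The Slc25a1 window holds 1 E-box and 1 CCAAT box, the latter on the opposite strand. The Slc25a10 window holds none of the 4 motifs. The Slc25a42 window holds 5 CCAAT boxes, 3 as written and 2 on the opposite strand.

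Across all 32851 RefSeq windows of this length, an E-box was found in 6.02%, a CCAAT box in 33.8%, a sterol regulatory element in 1.05% and a half-site in 14%. A count of 5 or more CCAAT boxes was found in 0.213% of windows. Windows were found for 30 of the 39 carriers. Of these, an E-box lay before Slc25a1, Slc25a13, Slc25a14, Slc25a15, Slc25a33 and Slc25a36, and a CCAAT box before 16. The half-site lay before 4 (Slc25a34, Slc25a39, Slc25a45 and Slc25a47) and the sterol element before Slc25a18 alone. These are counts of genes, while the percentages above are of windows. Counted by window, the carriers had 39, of which 7 held an E-box, 19 a CCAAT box, 4 a half-site and 1 a sterol element. These matches are descriptions of the letters in the windows.

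The citrate carrier Slc25a1 (probe set 1428190_PM_at, its only one) hands mitochondrial citrate to the cytosol, where it is split to acetyl-CoA. Its signal was 9.78, 9.81 and 9.74 in wild-type low-fat livers and 10.07, 9.58 and 9.84 in their knockout counterparts. High-fat livers gave 9.42, 9.37 and 9.61 (wild-type) and 9.49, 9.46 and 9.50 (knockout). Every high-fat liver lay below every low-fat liver of its own genotype. Of all genes, 4.79% had no overlap between diets, in the same direction, in both genotypes. The single overlap across genotypes was between knockout low-fat replicate 2 (9.58) and wild-type high-fat replicate 3 (9.61). The log2 difference was -0.33 (SE 0.0746, limma adjusted p = 0.0275), with -0.30 in wild-type and -0.35 in knockout livers. The call was lost in 5 of the 12 fits to 11 arrays. The arrays left out in these were wild-type low-fat replicate 1 (adjusted p = 0.0643), wild-type high-fat replicates 1 and 2 (0.0658 and 0.0776) and knockout high-fat replicates 2 and 3 (0.0699 and 0.0558), with Slc25a1 differences of -0.39 to -0.27 over all 12.

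In the list of citrate export and malate-aspartate shuttle enzymes, 2 of 8 tested genes passed (25%, against 4.56% of all genes), and both fell on the high-fat diet. The list was chosen with earlier results of these data known and the share rests on 2 genes, so it is a description only. The log2 signal of Acly, which splits citrate in the cytosol, was 8.93 to 9.36 on the high-fat and 9.52 to 10.48 on the low-fat diet, with no overlap (fall of 1.93-fold, log2 difference -0.95, SE 0.149, limma adjusted p = 0.00465). Malic enzyme Me1, which makes NADPH for fatty acid synthesis from malate, was 9.18 to 9.73 on the high-fat and 10.21 to 11.48 on the low-fat diet, again with no overlap (fall of 2.73-fold, log2 difference -1.45, SE 0.152, adjusted p = 0.000296). Diets that do not overlap were found for 3.27% of all genes. Of the 8, 3 were higher and 5 lower, with a median of -0.04. Citrate synthase Cs (0.16, adjusted p = 0.219) and the transaminase Got2 (0.09, adjusted p = 0.13) were among those with higher values and did not pass. The calls of Acly and Me1 were kept in all 12 fits to 11 arrays.

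The dicarboxylate carrier Slc25a10 (probe set 1416954_PM_at) exchanges malate and succinate for phosphate. Wild-type livers gave signals of 8.78, 9.17 and 9.15 on low-fat food and 9.24, 9.22 and 9.12 on high-fat food. Knockout livers gave 8.90, 8.85 and 8.90 on low-fat food and 9.30, 9.42 and 9.19 on high-fat food. The knockout livers did not overlap between diets, which held for 21.7% of all genes. Wild-type high-fat replicate 3 (9.12) lay within the wild-type low-fat range. The log2 difference was 0.29 (SE 0.072, limma adjusted p = 0.0405) averaged over genotypes, 0.16 (SE 0.102, adjusted p = 0.723) in wild-type livers and 0.42 (SE 0.102, adjusted p = 0.048) in knockout livers. Slc25a10 was the 1 of 32 carriers that passed within knockout livers, where 3.03% of all genes passed and 1.75% did so in the rising direction. At an unadjusted p under 0.05 there were 11 carriers (34.4%) in knockout livers, against 18.3% of all genes. None of the 32 carriers passed by limma within wild-type livers, where 0.175% of all genes did, and 0.078% in the rising direction. There, 3 carriers (9.38%) had an unadjusted p under 0.05, against 8.82% of all genes. The difference between the diet effects of the genotypes did not pass for Slc25a10 (0.26, SE 0.144, adjusted p = 0.879). Its second probe set, 1416955_PM_at, gave 0.29 averaged over genotypes (SE 0.111), with 0.10 in wild-type and 0.48 in knockout livers.

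Both calls of Slc25a10 lay close to the threshold, with a limma adjusted p of 0.0405 averaged over genotypes and 0.048 within knockout livers. Averaged over genotypes, the call was lost in 9 of the 12 fits to 11 arrays. It was kept when wild-type low-fat 2, wild-type low-fat 3 or knockout high-fat 3 was the array left out, and over all 12 the difference was 0.23 to 0.32 and the adjusted p 0.0304 to 0.106. Within knockout livers the call was also lost in 9 of 12, without each array but those of the wild-type low-fat group, with differences of 0.36 to 0.48 and an adjusted p of 0.0196 to 0.187. Slc25a1 passed in knockout livers when their low-fat replicate 2 was left out (-0.47, adjusted p = 0.0306), and Slc25a26 when their low-fat replicate 3 was (0.53, adjusted p = 0.0436). Each of these 2 carriers passed there in 1 of the 12 fits, with a limma adjusted p of up to 0.274 and 0.456 in the others.

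Slc25a42 (probe set 1424790_PM_at) brings coenzyme A into the matrix, where fatty acid oxidation and the citrate cycle use it. On low-fat food its signal was 7.85, 8.19 and 8.09 without the knockout and 7.79, 8.17 and 8.10 with it. High-fat food gave 8.24, 8.61 and 8.46 without the knockout and 8.24, 8.33 and 8.44 with it. All 6 high-fat livers (8.24 to 8.61) lay above all 6 low-fat livers (7.79 to 8.19). It was the 1 of 32 carriers with no overlap between the diets, which is 3.12% of carriers against 3.27% of all genes tested. The log2 difference was 0.35 (SE 0.0917, limma adjusted p = 0.0475), with 0.39 in wild-type and 0.32 in knockout livers. The call was lost in 8 of the 12 fits to 11 arrays. It was kept when wild-type low-fat 2, wild-type high-fat 1, knockout low-fat 2 or knockout low-fat 3 was the array left out, and over all 12 the Slc25a42 difference was 0.30 to 0.40 and the adjusted p 0.0392 to 0.116. The second, dimmer probe set of the gene, 1443637_PM_at (mean 4.88), gave 0.13 (SE 0.113), with 0.02 in wild-type and 0.25 in knockout livers.

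Without knockout high-fat replicate 2, and also without wild-type high-fat replicate 2, 0 of the 32 carriers passed in the comparison of diets averaged over genotypes. A single carrier (1 of 32) passed without any 1 of 5 arrays, namely knockout high-fat 3, knockout low-fat 1, wild-type high-fat 1, wild-type high-fat 3 and wild-type low-fat 1. In the remaining 5 refits, 2 or 3 carriers passed. Without the 2 arrays low in macrophage markers, Slc25a1 passed (adjusted p = 0.0195), while Slc25a10 (0.0792, and 0.141 within knockout livers) and Slc25a42 (0.0917) did not. The averages of 2 marker lists lay mostly higher on the high-fat diet. Those of the 5 T and B cell markers with a probe set were 4.14 to 4.37 on the low-fat and 4.32 to 4.50 on the high-fat diet, and Cd3g and Ms4a1 among them lay under the filter. Those of the 4 exocrine pancreas markers with a probe set were 5.12 to 5.39 and 5.33 to 5.58, with Cpa1 and Amy2a5 under the filter. Their part in the carrier differences was not tested.

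**Figure D2:**
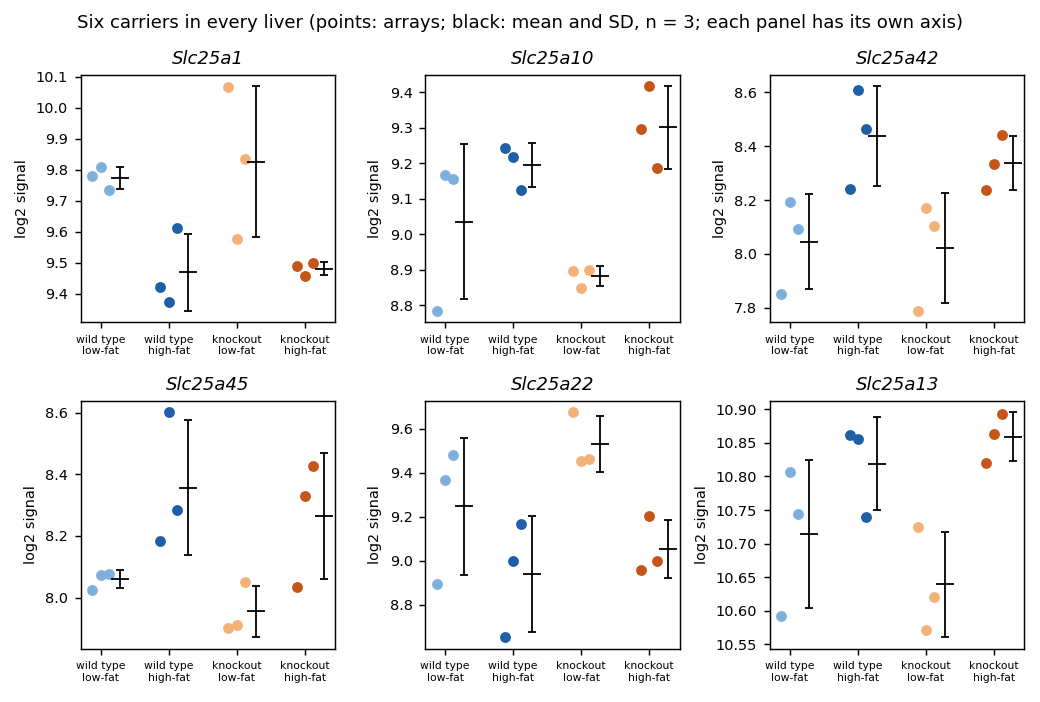
Log2 signal of 6 carriers in each liver (points) with the mean and SD of each group of 3 (black), each panel on its own axis. These are the 3 that passed in the comparison of diets averaged over genotypes and the next 3 by p-value. For Slc25a42 every high-fat point (8.24 to 8.61) lies above every low-fat point (7.79 to 8.19), while in the other 5 panels the ranges of the diets overlap across genotypes.

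Among the carriers of amino acids, the aspartate and glutamate carriers of liver had opposite signs. Slc25a13, or citrin, sends aspartate to the cytosol for the urea cycle and the malate-aspartate shuttle. Its signal was 10.57 to 10.81 (median 10.67) on the low-fat and 10.74 to 10.89 (median 10.86) on the high-fat diet, a difference of 0.16 (SE 0.0485) that did not pass (limma adjusted p = 0.0788). The glutamate carrier Slc25a22 was 8.90 to 9.67 on the low-fat diet (means 9.25 in wild-type and 9.53 in knockout livers) and 8.65 to 9.20 on the high-fat diet (means 8.94 and 9.05), with a difference of -0.39 (SE 0.111, adjusted p = 0.0661). Wild-type replicate 1 was the lowest low-fat liver at 8.90, and without this array Slc25a22 passed (-0.48, adjusted p = 0.0234). This was 1 of the 12 fits to 11 arrays, and Slc25a22 did not pass in the others (limma adjusted p up to 0.137). Slc25a12, or aralar, the aspartate-glutamate carrier of muscle and brain, had a difference of 0.0029 (SE 0.0749).

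Slc25a44, which brings branched-chain amino acids into mitochondria, had a difference of -0.27 (SE 0.0888, limma adjusted p = 0.111). Its signal was 7.66 to 8.33 (median 7.96) on the low-fat diet and 7.62 to 7.92 (median 7.70) on the high-fat diet, so the diets overlapped. The second Slc25a44 probe set gave -0.33 (SE 0.126). The ornithine carrier Slc25a15, which exchanges ornithine for citrulline in the urea cycle, had -0.13 (SE 0.0511, adjusted p = 0.168). Without knockout low-fat replicate 2 the Slc25a15 difference was -0.17 and passed (adjusted p = 0.0441). This was 1 of the 12 fits to 11 arrays, and Slc25a15 did not pass in the others (limma adjusted p up to 0.308). The second Slc25a15 probe set gave -0.12 (SE 0.106), with -0.27 in wild-type and 0.03 in knockout livers. The brighter one gave -0.07 and -0.19. The basic amino acid carrier Slc25a29, the S-adenosylmethionine carrier Slc25a26 and the glycine carrier Slc25a38, which feeds haem synthesis, had -0.08, 0.11 and 0.03. Of the 5 tested members of this substrate group 2 were higher and 3 lower, and none passed (2 at an unadjusted p under 0.05 in limma).

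The carriers of adenine nucleotides and phosphate gave 1 higher and 4 lower values among 5 tested members, none past the threshold (1 at an unadjusted p under 0.05 in limma). The ADP/ATP translocase Slc25a5, a widely expressed form, was 11.92 to 12.12 on the low-fat and 11.97 to 12.19 on the high-fat diet (difference 0.07, SE 0.0436). Slc25a3 had -0.05 (SE 0.0319), Slc25a4 -0.14 (SE 0.237) and Slc25a25 -0.25 (SE 0.255). Slc25a23, a calcium-regulated ATP-magnesium carrier, had -0.18 (SE 0.0643, adjusted p = 0.14). It did not overlap between diets in knockout livers, with 8.65 to 8.91 on the low-fat and 8.42 to 8.58 on the high-fat diet. Such a lack of overlap was found there for 21.7% of all genes.

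Among the 8 carriers of cofactors and other nucleotides, 5 were higher and 3 lower, and Slc25a42 alone passed. Slc25a51, which brings in NAD, had the lowest difference of all 32 carriers, -0.40, but with an SE of 0.225 (limma adjusted p = 0.365). All 3 of its probe sets had negative differences (-0.40, -0.39 and -0.54). The folate and flavin carrier Slc25a32 had -0.33 (SE 0.162, adjusted p = 0.281), the pyrimidine nucleotide carriers Slc25a33 and Slc25a36 had 0.18 and 0.10, and the peroxisomal carrier Slc25a17 had 0.09. Slc25a16, linked to coenzyme A, had 0.08 (SE 0.0429). Slc25a47, a carrier made almost only in liver, was 11.82 to 12.15 on the low-fat and 11.77 to 11.97 on the high-fat diet (difference -0.10, SE 0.0538, adjusted p = 0.345).

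Among the iron and glutathione carriers, mitoferrin 1, Slc25a37, had 0.11 (SE 0.0525), mitoferrin 2, Slc25a28, -0.08, and the glutathione carriers Slc25a39 and Slc25a40 -0.01 and -0.20. None of the 4 passed. The uncoupling protein relatives Slc25a14 and Slc25a30 had 0.01 and 0.20. Of the carriers with no settled substrate, Slc25a45 came closest to the threshold, with 7.90 to 8.08 (median 8.04) on the low-fat and 8.04 to 8.60 (median 8.31) on the high-fat diet (difference 0.30, SE 0.0858, adjusted p = 0.066). Knockout high-fat replicate 1 was the low one of its diet at 8.04, and without it Slc25a45 passed (0.36, adjusted p = 0.0292). Among the 12 fits that each left out a single array, this was the 1 in which Slc25a45 passed. Its limma adjusted p was up to 0.146 in the others. Slc25a34 had 0.19 and Slc25a46 0.07.

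Of the 7 dim carriers, fitted without the filter, none passed in the comparison of diets averaged over genotypes, where 2.25% of 17097 genes did (1 carrier at an unadjusted p under 0.05 in limma). Slc25a35 had the largest value of the 7 next to Slc25a18, at 0.22 (SE 0.0809, adjusted p = 0.221), and Slc25a18 had 0.22 (SE 0.109, adjusted p = 0.396). Their means over all arrays were 3.36 and 3.49. The other 5 had differences between -0.05 (Slc25a24) and 0.10 (Slc25a53).

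The diet differences of the carriers were mostly of the same sign in both genotypes, which share no arrays. This held for 27 of 32 carriers, or 84.4%, against 61.9% of all genes tested. The exceptions were Slc25a25, Slc25a26, Slc25a33, Slc25a36 and Slc25a38. The count rests on the brightest probe set of each gene and includes differences near 0, as for Slc25a12 and Slc25a14. Among the 27, some dimmer probe sets above the filter changed sign between wild-type and knockout livers. They belonged to Slc25a15 (-0.27 and 0.03), Slc25a5 (such as -0.17 and 0.08), Slc25a29, Slc25a37 and Slc25a39. Those of Slc25a10, Slc25a30, Slc25a42, Slc25a44, Slc25a46 and Slc25a51 did not. Within wild-type livers 6 of 32 carriers did not overlap between the diets (18.8%, against 15.7% of all genes), namely Slc25a33, Slc25a37, Slc25a42, Slc25a45 and Slc25a46, which were higher on the high-fat diet, and Slc25a1, which was lower. Within knockout livers 9 did not overlap (28.1%, against 21.7% of all genes). Higher on the high-fat diet were Slc25a10, Slc25a13, Slc25a16, Slc25a34 and Slc25a42, and lower were Slc25a1, Slc25a22, Slc25a23 and Slc25a40. Slc25a1 and Slc25a42 were the 2 carriers that did not overlap in either genotype, in the same direction (6.25%, against 4.79% of all genes).

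**Figure D3:**
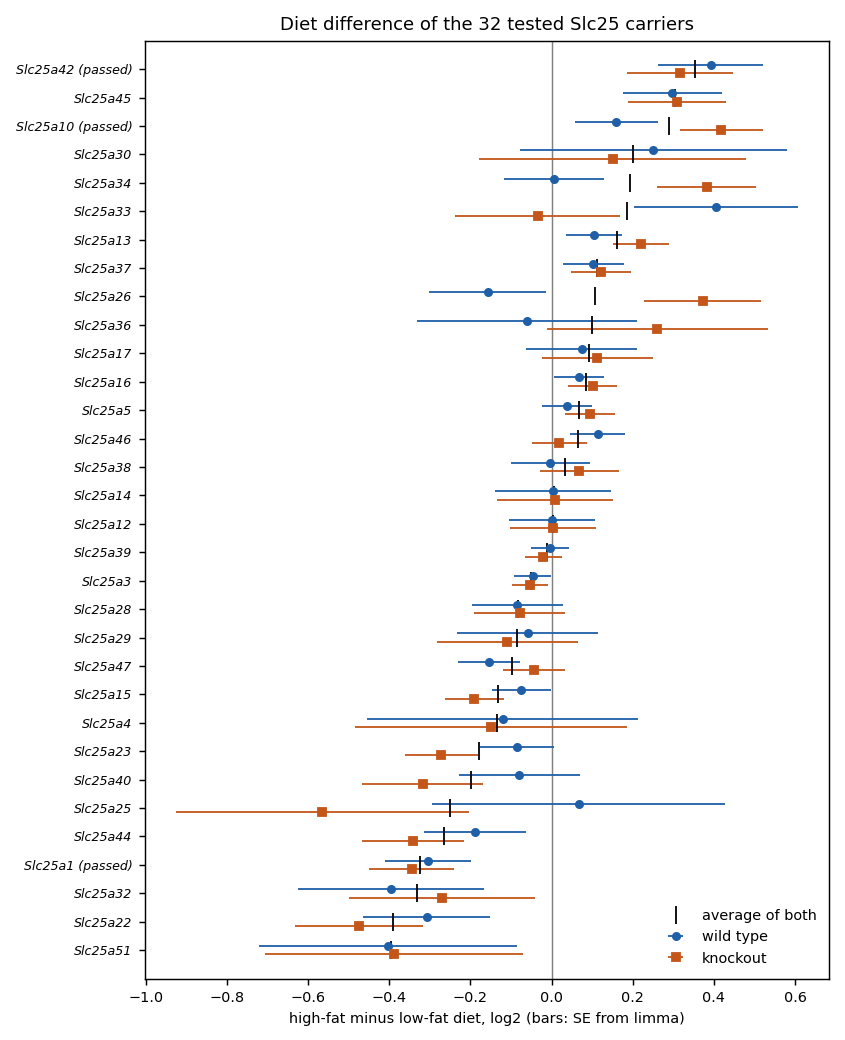
High-fat minus low-fat difference in log2 signal of the 32 tested carriers, in wild-type livers (circles) and knockout livers (squares), with limma's SE as bars and the average of both as a black tick. Carriers run from Slc25a51 (-0.40) at the bottom to Slc25a42 (0.35) at the top, and the 3 that passed on average are marked.

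Whether the diet acted differently without Pml was tested as the difference between the 2 diet effects. None of the 32 carriers passed by limma (lowest adjusted p = 0.827, 1 carrier at an unadjusted p under 0.05), and none of the 10258 genes did (0% of genes, with 5.70% of them at an unadjusted p under 0.05). The carrier with the smallest p was the S-adenosylmethionine carrier Slc25a26. Its signal was 5.87, 5.68 and 5.77 in wild-type low-fat and 5.61, 5.70 and 5.54 in wild-type high-fat livers. Without Pml it was 5.47, 5.12 and 5.76 on low-fat food and 5.93, 5.74 and 5.79 on high-fat food. The diet difference was -0.16 in wild-type and 0.37 in knockout livers, and the difference between them 0.53 (SE 0.205, adjusted p = 0.827). The diet difference of Slc25a26 in knockout livers ran from 0.21 without their low-fat replicate 2 to 0.53 without their low-fat replicate 3. Slc25a34 had diet differences of 0.01 and 0.38, and Slc25a33 0.40 and -0.03.

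The probe sets of a carrier could be compared where it had more than 1, as in 19 of the 39, in a fit with each probe set on its own. There were 21 further probe sets above the filter, from 12 carriers, and 17 of them had the same sign of the diet difference as the brighter probe set of their gene. The 4 with the opposite sign belonged to Slc25a5, Slc25a29, Slc25a37 and Slc25a39, 1 each, all with differences between -0.12 and 0.10. In Slc25a37 the brightest probe set gave 0.11 and the others 0.03 and -0.12, so its direction depends on the probe set. The 4 probe sets of Slc25a5 and the brightest ones of Slc25a37 and Slc25a39 have names ending in x_at, which on these arrays marks probes that may also match other transcripts, so the values of these 3 genes are uncertain. The same holds for Slc25a32, whose only probe set is of this kind.

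**Figure D4:**
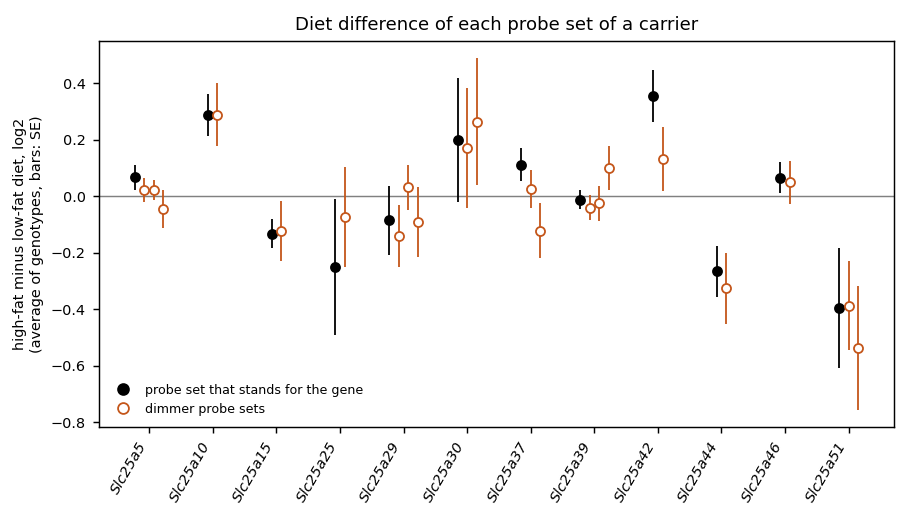
High-fat minus low-fat difference in log2 signal, averaged over genotypes, with limma's SE as bars, for each probe set above the filter of the 12 carriers that had more than 1. Filled points are the probe sets that stood for the gene and open points the dimmer ones. Both Slc25a10 points lie at 0.29, the 3 points of Slc25a51 lie between -0.54 and -0.39, and the second point of Slc25a42 (0.13) lies below the first (0.35).

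Knockout and wild-type livers were compared to ask what the loss of Pml did to the carriers. No carrier passed on either diet or averaged over both. On the low-fat diet the lowest limma adjusted p among the 32 was 0.56, with 1 carrier at an unadjusted p under 0.05 (3.12%, against 8.72% of all genes). On the high-fat diet it was 0.996, with 0 carriers (against 4.46% of all genes). Averaged over the diets it was 0.653, with 2 carriers (6.25%, against 7.26%). Of all 10258 genes, 0.00975% passed on each diet and 0.0195% on average. The median difference averaged over diets was -0.037 over the carriers and 0.0057 over all genes, with 24 of 32 carriers lower in knockout livers (25.0% higher, against 52.2% of all genes).

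The carriers with an unadjusted p under 0.05 averaged over diets were Slc25a37 and Slc25a32. Mitoferrin 1, Slc25a37, brings iron into mitochondria for haem and iron-sulphur clusters. On low-fat food its signal was 8.39, 8.50 and 8.50 with Pml and 8.31, 8.27 and 8.38 without. High-fat food gave 8.62, 8.55 and 8.52 with Pml and 8.48, 8.47 and 8.37 without. On each diet the genotypes did not overlap. The difference averaged over diets was -0.13 (SE 0.0525, limma adjusted p = 0.653), and the other Slc25a37 probe sets gave -0.10 and -0.16. Slc25a37 was the 1 of 32 carriers without overlap on the low-fat diet (3.12%, against 12% of all genes) and 1 of 2 on the high-fat diet (6.25%, against 11.8%), with Slc25a26 the other. Mitoferrin 1 is best known from red cell precursors. The erythroid markers averaged 8.71 to 9.06 in wild-type and 8.52 to 8.96 in knockout livers over the 3 of 7 with a probe set, all above the filter. Their part in the difference was not tested.

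The folate and flavin carrier Slc25a32 was 5.71, 5.16 and 6.02 with Pml and 5.09, 4.84 and 5.65 without on low-fat food. High-fat food gave 5.30, 5.03 and 5.38 with Pml and 4.95, 5.08 and 4.75 without. The genotypes overlapped on both diets. The difference averaged over diets was -0.37 (SE 0.162, adjusted p = 0.68 by limma), the lowest of the 32 carriers. The only probe set of Slc25a32 may also match other transcripts. The highest was that of Slc25a22, at 0.20 (SE 0.111, adjusted p = 0.741), followed by Slc25a44 at 0.18. The 3 carriers that passed in the comparison of diets had genotype differences of 0.03 for Slc25a1 (SE 0.0746), -0.02 for Slc25a10 (SE 0.072) and -0.06 for Slc25a42 (SE 0.0917).

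By substrate, genotype differences averaged over diets were below 0 in most groups, beside 24 of 32 carriers in all and 4899 of the 10258 genes. They were lower in knockout livers for 7 of 8 carriers of cofactors and other nucleotides (-0.37 to 0.01), 4 of 4 iron and glutathione carriers (-0.13 to -0.03), 4 of 5 carriers of adenine nucleotides and phosphate (-0.15 to 0.07), 3 of 3 carriers with no settled substrate (-0.10 to -0.01), 2 of 2 uncoupling protein relatives (-0.19 and -0.01) and 2 of 3 carriers of aspartate and glutamate (-0.03 to 0.20). The di- and tricarboxylate carriers had 1 of each sign (-0.02 and 0.03). They were higher for 4 of 5 carriers of other amino acids and methyl donors (-0.06 to 0.18). None of these values passed the test. These counts of signs, that of all 32 carriers included, rest on the brightest probe set of each gene. Dimmer probe sets above the filter had the opposite sign for Slc25a42 (0.24 against -0.06), Slc25a10 (0.10 against -0.02) and Slc25a25 (0.06 against -0.06). Those of Slc25a29 and Slc25a5 had both signs. Those of Slc25a15, Slc25a30, Slc25a37, Slc25a39, Slc25a44, Slc25a46 and Slc25a51 kept the sign. The genotype difference had the same sign on both diets for 20 of 32 carriers (62.5%, against 52.3% of all genes).

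**Figure D5:**
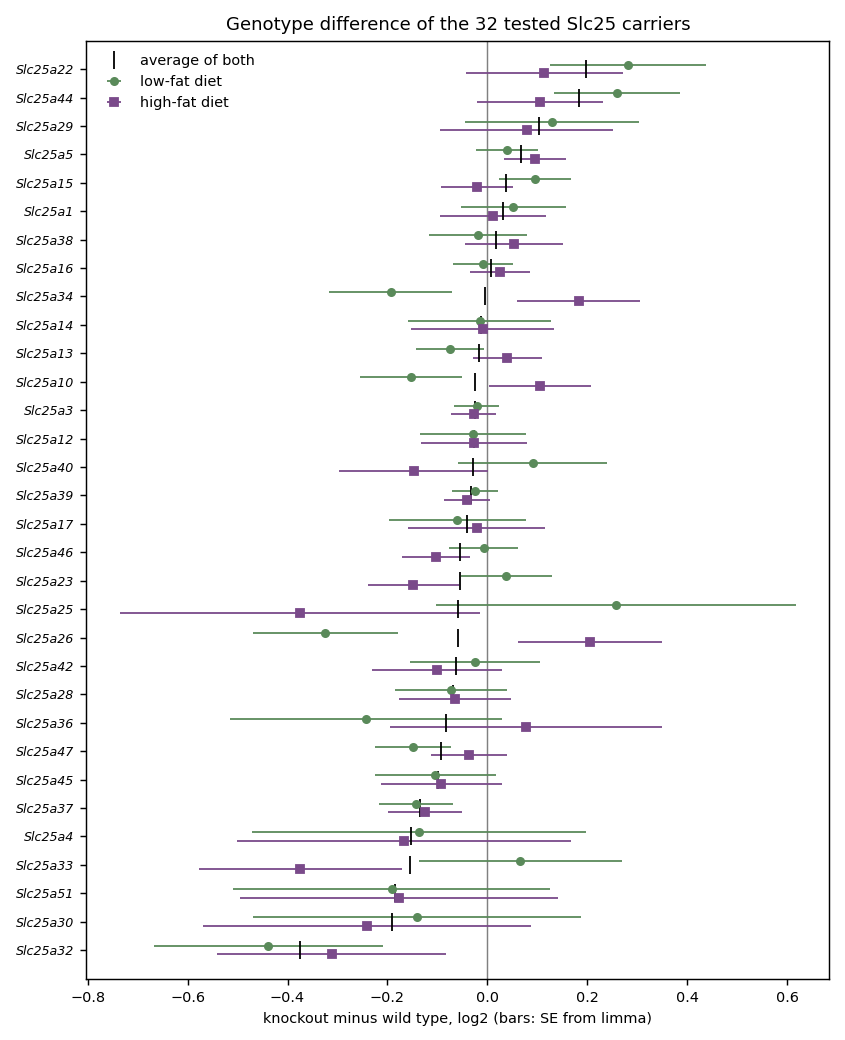
Knockout minus wild-type difference in log2 signal of the 32 tested carriers on the low-fat diet (circles) and the high-fat diet (squares), with limma's SE as bars and the average of both as a black tick. Averages run from Slc25a32 (-0.37) to Slc25a22 (0.20), 24 of 32 lie below 0, and no carrier passed.

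Genes that work beside the carriers were read from the same fit, in which 4.56% of all genes passed between the diets averaged over genotypes. Like the list of citrate export enzymes, 4 further lists were chosen with earlier results of these data known, so their shares are descriptions only. In each of them a single gene passed, so the shares rest on 1 gene each. In the list of proteins that import carriers into the inner membrane it was 1 of 13 tested genes (7.69%). This was Tomm20, a receptor of the outer membrane translocase, which fell 1.17-fold on the high-fat diet (log2 difference -0.22, SE 0.047, limma adjusted p = 0.0193). Of 10 other mitochondrial membrane transporters 1 passed (10%), the pyruvate carrier subunit Mpc1, which rose 1.20-fold (0.26, SE 0.0561, adjusted p = 0.0221). Its signal was 11.20 to 11.46 on the low-fat and 11.40 to 11.74 on the high-fat diet. Of 8 urea cycle and ornithine enzymes 1 passed (12.5%), ornithine aminotransferase Oat, which rose 1.38-fold (0.46, SE 0.1, adjusted p = 0.0223). Of 12 genes of haem and iron-sulphur synthesis 1 passed (8.33%), uroporphyrinogen synthase Uros, which rose 1.29-fold (0.37, SE 0.0789, adjusted p = 0.0196). The 3 tested relatives under other symbols gave 0 calls in limma. In the comparisons of genotypes 0 of the genes on these lists passed by limma. Within knockout livers, where 3.03% of all genes passed between the diets, Me1 (-1.71, adjusted p = 0.00247) and Oat (0.62, adjusted p = 0.0366) did.

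The calls of Mpc1, Uros, Tomm20 and Oat averaged over genotypes were each lost in some of the 12 fits to 11 arrays, at adjusted p values not far above the threshold. The call of Mpc1 was lost in 6 of the 12 fits to 11 arrays, without wild-type low-fat 1 or 3, wild-type high-fat 1 or 2, knockout low-fat 1 or knockout high-fat 2 (adjusted p up to 0.0636). Uros was lost without wild-type low-fat 1, wild-type high-fat 2 or knockout high-fat 3 (up to 0.0567), and Tomm20 without wild-type low-fat 1 or wild-type high-fat 2 (up to 0.0539). Oat was lost without wild-type low-fat 3 (0.0537), and its call within knockout livers without knockout low-fat 1 or 2 or any of the 3 knockout high-fat arrays (up to 0.118). With the mean of the probe sets in place of the brightest, Tomm20 gave -0.01 (adjusted p = 0.93) and Uros 0.15 (0.399). With no trend in the variance prior, Tomm20 (0.0546), Mpc1 (0.058) and Oat within knockout livers (0.0634) did not pass. Oat within knockout livers was also lost with a robust variance prior (0.0518) and in a fit to those 2 groups alone (0.077). Without the 2 arrays low in macrophage markers, Tomm20, Mpc1, Oat and Uros did not pass (0.0682, 0.0618, 0.0798 and 0.0707), nor did Oat within knockout livers (0.179). The call of Me1 within knockout livers was kept in all 12 fits to 11 arrays.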

How the data were processed

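Per the labels' protocols, Trizol was used to isolate liver RNA, which then carried biotin for hybridisation. The authors deposited log2 values for 45141 probe sets and 12 arrays, computed by RMA per the submitters' processing notes. No version of it is given in the sources used here. Quantile steps within RMA can mask a change shared by all genes, and differences near either end of the intensity scale shrink. Array medians were 3.94 to 4.00, and no scaling was added. Control probe sets (104) and those with several genes (551) or none (15588) were left out. Symbols came from the platform annotation, checked through gene identifiers (28689 of 28898 probe sets matched).

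The fit used limma 3.58.1 in R 4.3.3, with means of the 4 groups over 12 arrays (8 residual degrees of freedom), a variance trend, and Benjamini-Hochberg adjustment over 10258 genes in each of 7 comparisons, without correction across comparisons. Genes passed at an adjusted p of 0.05. With 3 arrays against 3, an exact permutation test cannot go below 0.1, so none was run. SE are limma's.

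Every carrier that passed was named with its value in each array, and partner genes were named where they passed. Pml served as a check of the labels. The carriers, roles and lists were chosen with earlier results of these data known. The fit was tested on simulated data, in which every planted change was larger than those of the carriers that passed. It therefore does not show how well changes of their size are found. The alternatives were quantile normalization, median centring, no filter, a 60% filter, other uses of the probe sets, a looser threshold (adjusted p of 0.10), other variance priors, weighted arrays, blocking on the replicate number, the 2 groups alone, and leaving out each array or the 2 arrays low in macrophage markers.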

Additional observations from a re-analysis of the deposited data

How the results depend on the processing

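No carrier passed in the comparisons of genotypes, in the test of the difference between diet effects or in wild-type livers between diets under any alternative run. In knockout livers between diets, the count of carriers that passed was 1, and it became 2 with quantile normalization or an adjusted p of 0.10. It became 0 with median centring, no filter, the mean of the probe sets, each probe set on its own, no variance trend, the 2 groups alone or without the 2 arrays low in macrophage markers. With array weights it stayed at 1, but the carrier was Slc25a1 (adjusted p = 0.0496) and Slc25a10 missed the threshold (0.0729). Averaged over genotypes the count was 3, and it became 1 with no filter, the mean of the probe sets, no variance trend or without those 2 arrays, and 6 with array weights or an adjusted p of 0.10. Leaving out 1 array each gave 0 to 1 carriers in knockout livers and 0 to 3 on average. Slc25a1 passed on average in all 12 alternatives other than the refits without an array each (adjusted p from 0.0081 to 0.0486), Slc25a10 in 7 and Slc25a42 in 6. The adjusted p of 0.10 is among these 12. It is the same fit with a looser threshold, so the pass of these 3 carriers there was fixed in advance. No direction was reversed among the 28 pairs of carrier and comparison with an unadjusted p under 0.05. With the replicate number as a block, Slc25a10 missed the threshold (adjusted p = 0.0511 on average, and 0.0586 in knockout livers, where 0 carriers passed). The labels do not say that equal numbers belong together. Correlations of the deviations of same-numbered arrays from different groups ran from -0.166 to 0.381, with 7 of 18 pairs over 0.1. Those of arrays with different numbers ran from -0.454 to 0.249. Of the 12 arrays, 6 correlated best with an array of their own number, so an effect shared by equal numbers remains possible. Over all genes, 18 passed between the diets in wild-type livers (34 with quantile normalization, 109 with array weights), 311 in knockout livers (68 with the 2 groups alone) and 468 on average (776 with array weights). Leaving out 1 array each gave 5 to 39, 71 to 461 and 271 to 591 genes in these 3 comparisons, and an adjusted p of 0.10 gave 65, 655 and 921. Of the partner genes, 6 passed on average (3 to 8 without 1 array, 2 to 10 under the other alternatives) and 2 in knockout livers (1 to 5 and 1 to 6). In wild-type livers 0 did by limma (0 to 2 and 0 to 3). Without the 2 arrays low in macrophage markers, 69 passed in knockout livers and 256 on average. The cause of these changes was not tested.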
